A study of Mus musculus with 9 samples.

Results

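The amino acid stress response is described here in mouse eggs of 3 genotypes through 32 listed genes: its kinases, its transcription factors, the brakes it puts on translation and growth, and the metabolic and secreted genes it switches on. A gene was taken where a probe set named that gene and no other, with the probe set of the highest mean signal used where a gene had several. That rule found 31 of the 32, each with 1 probe set, among 19938 genes so represented, and all 31 passed the filter on low signal that 17324 genes passed. Pycr1, an enzyme of proline synthesis, has no such probe set and was not analysed here. The list leaves out the transporters and the tRNA synthetases of the same response, which are treated more briefly below as neighbours.

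Ovulated C57BL/6 oocytes at metaphase II were hybridised to 9 arrays: 3 hold wild-type eggs, 3 hold eggs without Dgcr8 and 3 hold eggs without Dicer, named below as knockouts. Ovulation was induced with PMSG (7.5 IU) followed by hCG (7.5 IU per mouse), eggs are labelled as collected 16 h after hCG, and cumulus cells were taken off with hyaluronidase. Dgcr8 works with Drosha to release microRNA precursors, whereas Dicer makes both microRNAs and endogenous small interfering RNAs. Eggs without Dgcr8 should therefore lack the microRNAs that need Dgcr8 and Drosha, and eggs without Dicer should lack both classes. Small RNAs were not measured here. The sources used here do not give what drove the deletions, which exons were lost, the females' age or how many oocytes went on an array. The values are log2 signals made by GCRMA, relative between arrays, so 1 unit is a 2-fold difference, and less RNA per egg and fewer eggs per array cannot be told apart. The signals of 2 genes on different probes are not directly comparable. They are set together only where a low signal is placed against the array medians and in the sums of marker signals.

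The response starts when a cell runs short of an amino acid. Uncharged tRNA activates the kinase Gcn2, encoded by Eif2ak4, which phosphorylates the initiation factor eIF2 and so slows most protein synthesis. The mRNA of the transcription factor Atf4 is then translated more, and Atf4, paired with C/EBP proteins, binds C/EBP-ATF response elements in the promoters of genes that make, import and charge amino acids. Perk (Eif2ak3), which senses unfolded protein in the endoplasmic reticulum, and Hri (Eif2ak1), which senses heme shortage and mitochondrial stress, feed into the same factor. Fully grown oocytes make almost no new RNA until after fertilization, so a transcript level in the egg reflects what was made during growth and what was kept.

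The promoter sequences are shown first because the C/EBP-ATF response element is the sequence through which this pathway is known to act. Promoter windows of 300 bases, 250 before an annotated start and 50 after it, were taken from RefSeq (GRCm38.p6) for the 30 listed genes that the table holds. The motif searched was TGATGNAA on either strand, where N is any base; 1219 of 27025 genes in the table hold it in at least 1 window, or 4.51%. It was found in 10 of the 30 listed genes, which are largely known as Atf4 targets, so that count is not independent of how they came to be listed. Of the 9 genes called higher in Dicer knockout eggs (below), 8 have a window and 3 of them hold the motif: Asns, Fgf21 and Vldlr. Shmt2, also called, has a window without it. Of the 22 remaining genes with a window (the unmeasured Pycr1 among them), 7 hold it, a similar share. These 7 are Chac1, Atf3, Trib3, Nupr1, Herpud1, Pck2 and Pycr1. The stretches below run 5′ to 3′ along the gene's own strand, end before the start site, and give the match in capitals; Asns, Fgf21 and Vldlr were called higher, and Chac1, Atf3 and Nupr1 were not.
Asns (chr6:7693210-7693252, minus strand, match beginning 23 bases upstream of the start): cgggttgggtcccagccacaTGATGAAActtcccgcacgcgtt
Fgf21 (chr7:45615602-45615649, minus strand, 139 bases upstream): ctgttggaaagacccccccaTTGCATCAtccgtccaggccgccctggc
Vldlr (chr19:27216800-27216847, plus strand, 200 bases upstream): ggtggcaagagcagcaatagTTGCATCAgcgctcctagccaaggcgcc
Chac1 (chr2:119351029-119351076, plus strand, 193 bases upstream): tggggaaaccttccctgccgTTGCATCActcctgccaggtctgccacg
Atf3 (chr1:191183416-191183463, minus strand, 110 bases upstream): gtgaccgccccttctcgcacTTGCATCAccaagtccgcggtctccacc
Nupr1 (chr7:126625553-126625600, minus strand, 110 bases upstream): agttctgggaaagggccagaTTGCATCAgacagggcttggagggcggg

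The same letters, TTGCATCA, stand in windows of Fgf21 and Vldlr, which were called, and of Chac1, Atf3, Nupr1 and Herpud1, which were not. Vldlr has 2 windows and 1 holds the match. The ER stress response element, CCAAT and CCACG with a gap of 9 bases between them, was found in none of the 30 genes' windows, against 0.137% of all genes. A match is a description of these letters and not evidence of binding.

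**Figure D1:**
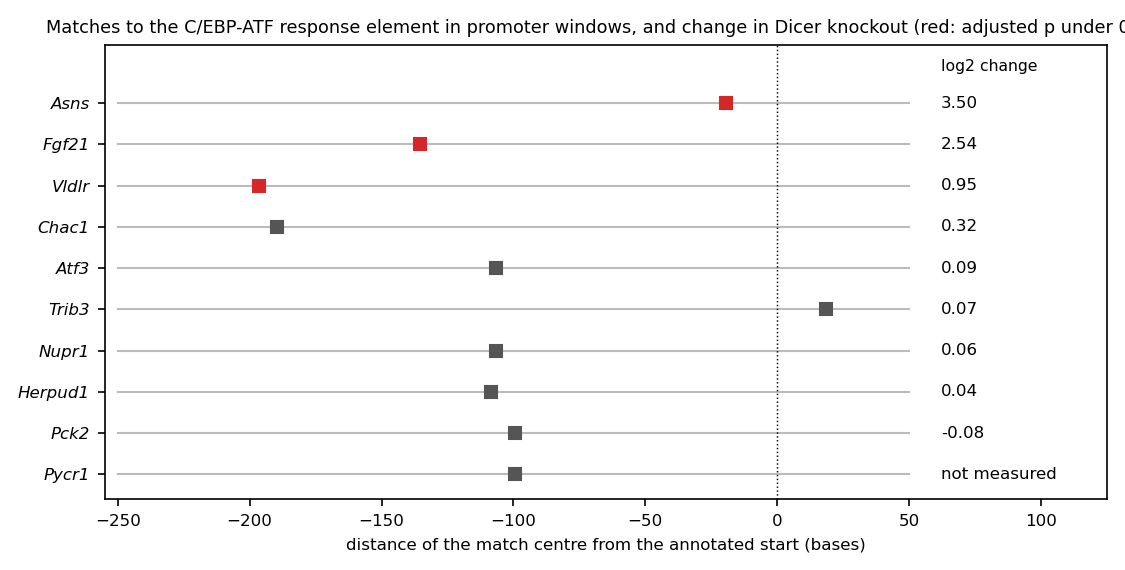
Position of each match to the C/EBP-ATF response element in the promoter windows of the 10 listed genes that hold one, as the distance in bases of the match's centre from the annotated start (dotted line), with the log2 change in Dicer knockout against wild-type at the right. Red squares mark Asns, Fgf21 and Vldlr, called higher; the remaining 6 measured genes have changes between -0.08 and 0.32, and Pycr1 was not measured.

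Part of the amino acid stress response was higher in Dicer knockout eggs. No gene of it was called in Dgcr8 knockout eggs, where only 0.0231% of all genes were called. In Dicer knockout eggs 9 of the 31 genes were called higher than in wild-type (limma, adjusted p under 0.05 over all genes tested) and none lower, where 4.87% of all genes tested were called higher and 6.47% lower. The 9 were Asns, Fgf21, Shmt2, Cth, Vldlr, Sesn2, Aldh18a1, Atf4 and Cebpg. The change was above 0 in 25 of the 31, against 42.1% of all genes, with a median log2 change of 0.20 against -0.03. At least 2-fold changes were found for 3, Asns, Fgf21 and Shmt2, where 1.56% of all genes were called higher by that much. The 3 Dicer knockout arrays all lay above the 3 wild-type arrays for 15 of the 31 (10.0% of all genes) and all below them for 1, Eif2ak4 (16.1% of all genes). The labels call the arrays of a genotype biological replicates without saying how eggs were drawn from females, so the p-values measure the spread between these samples. Earlier results of these data were known when the list was chosen, so the counts describe these genes and do not set them apart from others.

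**Figure D2:**
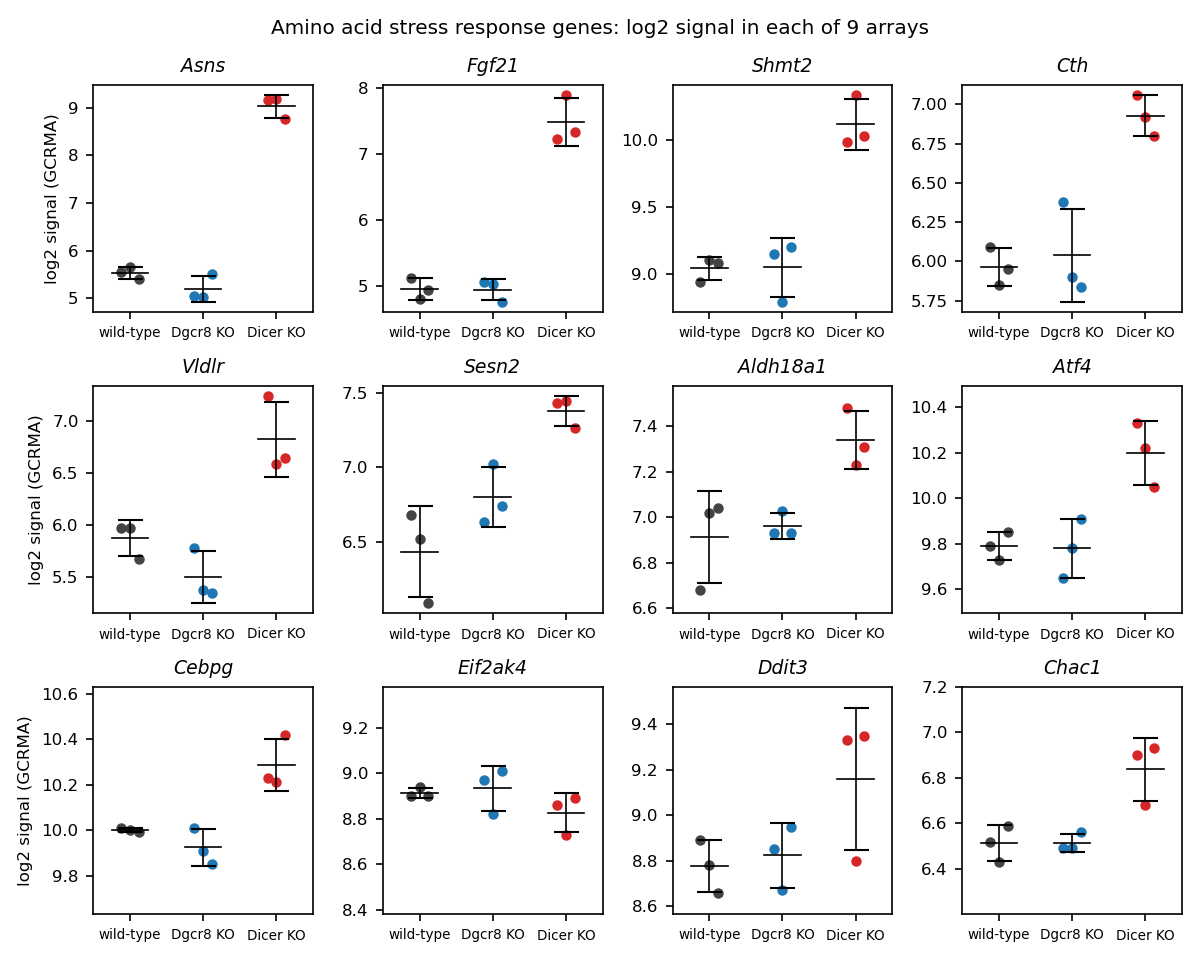
Log2 signal of 12 genes of the response in each of the 9 arrays, in 3 wild-type, 3 Dgcr8 knockout and 3 Dicer knockout samples (points), with the mean and SD of each genotype (bars); each panel has its own axis. Asns lies between 8.76 and 9.18 in the Dicer knockout arrays and between 5.03 and 5.65 in the other 6, whereas Eif2ak4 spans only 8.73 to 9.01 over all 9.

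Among the kinases none changed by the test in either knockout. Eif2ak4, the amino acid sensor Gcn2, had log2 signals of 8.90, 8.94 and 8.90 in wild-type, 8.97, 8.82 and 9.01 in Dgcr8 knockout and 8.86, 8.73 and 8.89 in Dicer knockout eggs. Its Dicer knockout arrays were just below the wild-type ones, but the difference of -0.09 ± 0.08 (SE) did not pass (adjusted p 0.587), with a 95% interval of -0.26 to 0.08. Eif2ak1, the heme-regulated kinase Hri, stayed between 10.83 and 10.98 in all 9 arrays. Eif2ak3, the kinase Perk, was the most scattered of the 3, from 5.23 to 6.35, with its highest value in Dicer knockout replicate 1 (log2 change 0.32, adjusted p 0.416). The arrays measure the kinases' transcripts and not their activity.

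Of 8 transcription factors and their partners, 2 were called higher in Dicer knockout eggs (4.87% of all genes) and none lower (6.47%). All 8 had a change above 0, as did 42.1% of all genes. Atf4, the central factor, had log2 signals of 9.79, 9.73 and 9.85 in wild-type, 9.65, 9.78 and 9.91 in Dgcr8 knockout and 10.33, 10.22 and 10.05 in Dicer knockout eggs. All 3 Dicer knockout arrays were higher than the other 6, by a small amount: 0.41 ± 0.09 (log2, SE; adjusted p 0.0135), or 1.33-fold. That call was lost without wild-type replicate 2 or without Dicer knockout replicate 1, where the adjusted p was 0.057 and 0.0519. Cebpg, a C/EBP protein that pairs with Atf4, was at 10.01, 10.00 and 9.99 in wild-type, 10.01, 9.91 and 9.85 in Dgcr8 knockout and 10.23, 10.21 and 10.42 in Dicer knockout eggs. Its Dicer knockout arrays again did not overlap the rest (0.29 ± 0.07, log2, SE; adjusted p 0.0213), and the call was lost with quantile normalization and without any 1 wild-type array (highest adjusted p 0.0768).

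Ddit3, the stress factor also called Chop, split the Dicer knockout arrays. Its log2 signals were 8.89, 8.78 and 8.66 in wild-type, 8.85, 8.67 and 8.95 in Dgcr8 knockout, and 9.33, 8.80 and 9.35 in Dicer knockout eggs. Dicer knockout replicates 1 and 3 were above every other array and replicate 2 was not, and the difference of 0.39 ± 0.15 (SE) did not pass (adjusted p 0.136). Without Dicer knockout replicate 2 it passed (adjusted p 0.00736). Atf5, a relative of Atf4 linked to mitochondrial stress, had a change of 0.20 (adjusted p 0.228), and Cebpb, a C/EBP protein induced in many stresses, of 0.19 (adjusted p 0.393); the Dicer knockout arrays of both lay above all wild-type arrays. Atf3, an early stress factor, Nupr1, a stress-induced chromatin protein, and Trib3, a pseudokinase that restrains Atf4, had changes of 0.09, 0.06 and 0.07, none called.

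Of the 4 brakes on translation and growth, only Sesn2 was called, higher in Dicer knockout eggs, as were 4.87% of all genes against wild-type. Sesn2 encodes Sestrin 2, which binds leucine and restrains the growth kinase mTORC1 when leucine is short. Its log2 signals were 6.68, 6.52 and 6.09 in wild-type, 6.63, 7.02 and 6.74 in Dgcr8 knockout and 7.43, 7.44 and 7.26 in Dicer knockout eggs. The Dicer knockout arrays were the 3 highest, 0.94 ± 0.16 (log2, SE) above wild-type (adjusted p 0.00388, 1.92-fold). The Dgcr8 knockout arrays lay between and overlapped wild-type, with a change of 0.36 and an adjusted p of 1.00 (unadjusted p 0.0452). Ddit4, another inhibitor of mTORC1, Ppp1r15a, the phosphatase subunit Gadd34 that reverses eIF2 phosphorylation, and Eif4ebp1, a repressor of cap-dependent translation, had Dicer knockout changes of -0.15, -0.05 and 0.10, with adjusted p of 0.432, 0.846 and 0.774.

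The enzymes of amino acid and one-carbon metabolism held the largest change. Of 10 measured, 4 were called higher in Dicer knockout eggs (4.87% of all genes) and none lower (6.47%). Asns, asparagine synthetase, which makes asparagine from aspartate and glutamine, had log2 signals of 5.55, 5.65 and 5.39 in wild-type, 5.05, 5.03 and 5.51 in Dgcr8 knockout and 9.17, 9.18 and 8.76 in Dicer knockout eggs. The 3 Dicer knockout arrays stood far above the rest, with a change of 3.50 ± 0.16 (SE, limma adjusted p 1.29e-06), or 11.3-fold. That increase ranked 8 among 17324 genes. The Asns signal outside the Dicer knockout lies near the array medians (5.479 to 5.578), and how far it stood above background is unknown. The fold is therefore one of signals and may not be that of the transcript. Shmt2, the mitochondrial hydroxymethyltransferase that converts serine to glycine, was at 8.94, 9.10 and 9.08 in wild-type, 9.15, 8.79 and 9.20 in Dgcr8 knockout and 9.99, 10.34 and 10.03 in Dicer knockout eggs. It rose by 1.08 ± 0.12 (log2, SE; adjusted p 0.000451) with no overlap, 2.11-fold.

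Cth, cystathionine gamma-lyase, the last step of cysteine synthesis from methionine, was at 6.09, 5.85 and 5.95 in wild-type, 6.38, 5.90 and 5.84 in Dgcr8 knockout and 7.06, 6.92 and 6.80 in Dicer knockout eggs. The Dicer knockout arrays were the 3 highest, above wild-type by 0.96 ± 0.14 (log2, SE; adjusted p 0.00206). Aldh18a1, the first enzyme of proline synthesis, was at 6.68, 7.02 and 7.04 in wild-type, 6.93, 7.03 and 6.93 in Dgcr8 knockout and 7.48, 7.23 and 7.31 in Dicer knockout eggs. All 3 Dicer knockout values exceeded the others, but the call is marginal: the change was 0.43 ± 0.12 (log2, SE) with an adjusted p of 0.0429, and it was lost in 12 of 18 other settings, among them the removal of any 1 wild-type or Dgcr8 knockout array and of Dicer knockout replicates 1 or 3 (adjusted p 0.0285 to 0.138 over the 18).

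None of the serine synthesis enzymes was called. Phgdh, the first step, had a change of 0.21 (95% interval -0.25 to 0.67, adjusted p 0.634), Psat1, the second, of 0.30 (interval -0.02 to 0.61, adjusted p 0.252) and Psph, the last, of 0.20 (adjusted p 0.210). The Dicer knockout arrays of Psat1 and Psph lay above all wild-type arrays, and those of Phgdh overlapped them. Mthfd2, the mitochondrial folate enzyme downstream of Shmt2, stood at 10.32, 10.38 and 10.50 in wild-type and at 10.62, 10.56 and 10.69 in Dicer knockout eggs, with no overlap and a change of 0.22 that fell just short (adjusted p 0.0506). It passed in 6 of 18 other settings. Gpt2, mitochondrial alanine transaminase, and Pck2, mitochondrial phosphoenolpyruvate carboxykinase, had changes of 0.20 and -0.08, with adjusted p of 0.431 and 0.710.

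Among the 6 secreted, membrane and other targets, 2 were called higher in Dicer knockout eggs (4.87% of all genes). Fgf21, a secreted hormone of fasting and amino acid shortage, had log2 signals of 5.12, 4.80 and 4.93 in wild-type, 5.05, 5.02 and 4.76 in Dgcr8 knockout and 7.23, 7.90 and 7.33 in Dicer knockout eggs. The Dicer knockout arrays lay more than 2 units above every other array, and the change of 2.54 ± 0.17 (SE), 5.82-fold, ranked 26 among all genes (adjusted p 1.17e-05). Its signal in the other 6 arrays is low for these arrays, whose medians start at 5.479, and how far it stood above background is unknown, so the fold is one of signals and may not be that of the transcript. Vldlr, the very low density lipoprotein receptor, was at 5.97, 5.97 and 5.67 in wild-type, 5.78, 5.37 and 5.34 in Dgcr8 knockout and 7.24, 6.58 and 6.64 in Dicer knockout eggs. It was higher in all 3 Dicer knockout arrays, most in replicate 1, by 0.95 ± 0.19 (log2, SE; adjusted p 0.00875).

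Chac1, which breaks down glutathione, came close: 6.52, 6.43 and 6.59 in wild-type, 6.49, 6.49 and 6.56 in Dgcr8 knockout, and 6.90, 6.68 and 6.93 in Dicer knockout eggs. The Dicer knockout arrays were the 3 highest, but the difference of 0.32 ± 0.10 (SE) missed the threshold (adjusted p 0.0577) and passed in 4 of 18 other settings. Stc2, the secreted stanniocalcin 2, Herpud1, a protein of endoplasmic reticulum quality control, and Xpot, the tRNA exporter, had changes of 0.17, 0.04 and -0.06, none called. Xpot read exactly the same, 4.11, in 5 arrays, including all 3 of the Dicer knockout. Such identical values (to 6 decimals) occurred in at least 1 pair of arrays for 14 of the 31 genes and for 50.2% of all genes tested. Of the 9 called genes, Cebpg and Vldlr have such a pair.

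**Figure D3:**
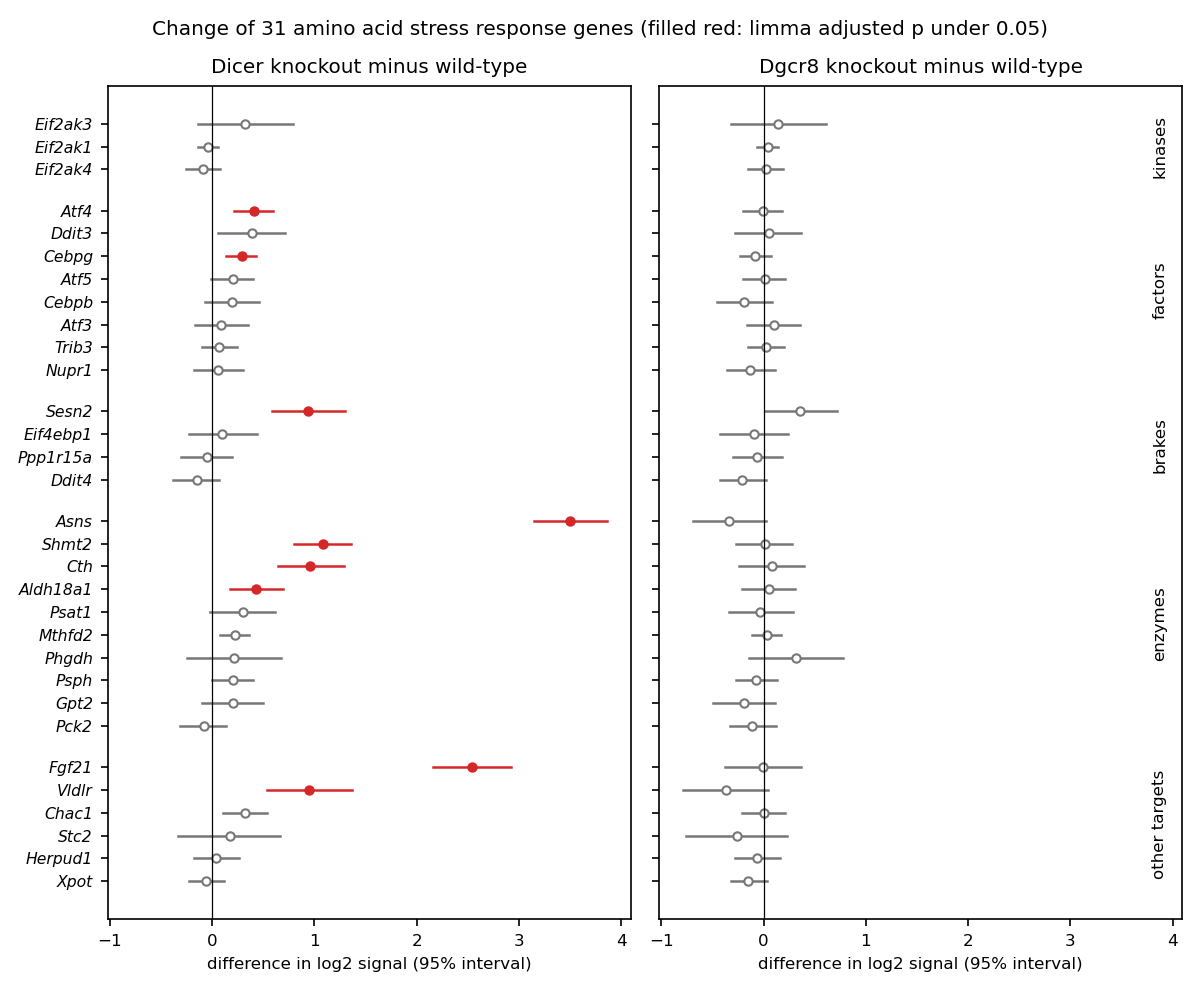
Difference in log2 signal from wild-type for all 31 genes, with 95% intervals from limma, in Dicer knockout (left) and Dgcr8 knockout (right), grouped by role and ordered by the Dicer knockout change. Filled red points are called: 9 in Dicer knockout, led by Asns at 3.50 and Fgf21 at 2.54, and none in Dgcr8 knockout, where 0.0231% of all genes were.

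In Dgcr8 knockout eggs none of the 31 genes was called by limma, in a comparison where 0.0231% of all genes were; 1, Sesn2, had an unadjusted p under 0.05, against 2.64% of all genes. The median log2 change was -0.01 and 14 of 31 changes were above 0. Asns had a change of -0.34 ± 0.16 (SE; adjusted p 1.00), opposite in sign to its rise without Dicer, and its 95% interval reached from -0.69 to 0.02. Fgf21, at -0.01, had an interval of -0.38 to 0.37, and Shmt2, at 0.01, of -0.27 to 0.28. The Dgcr8 knockout arrays lay entirely below wild-type for Ddit4 alone (3.02% of all genes), at 9.07, 9.24 and 9.22 against 9.62, 9.27 and 9.26, with a change of -0.21 that did not pass. The widest half-interval of any of these genes in the 3 comparisons was 0.49.

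The knockouts were also compared directly, which tests whether their changes differ, since the wild-type mean cancels. Against Dgcr8 knockout eggs, Dicer knockout eggs had 8 of the 31 genes higher and none lower, where 5.48% of all genes were called higher and 7.92% lower. These 8 are the 9 above without Aldh18a1 (0.38, adjusted p 0.0621). Changes were above 0 for 27 of 31 (44.4% of all genes), and the arrays did not overlap for 15, all higher in Dicer knockout (10.2% of all genes). At least 2-fold higher were 4, Asns by 3.84 ± 0.16 (SE), Fgf21 by 2.55 ± 0.17, Vldlr by 1.32 ± 0.19 and Shmt2 by 1.08 ± 0.12, against 1.68% of all genes. Sesn2, at 0.58, had the highest adjusted p of the 8 (0.0374) and missed the threshold in 7 of 18 other settings: with array medians set equal, without any 1 Dicer knockout array, without Dgcr8 knockout replicate 1 or 3, and without wild-type replicate 2 (adjusted p 0.0509 to 0.13). Both comparisons of Dicer knockout eggs use the same 3 Dicer knockout arrays, so their calls are not separate evidence.

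Outside these 31 genes, the amino acid transporters of the response moved in part too. Of 10, 4 were called higher in Dicer knockout than in wild-type eggs and 1 lower, against 4.87% and 6.47% of all genes. Slc7a3, a carrier of arginine and lysine, rose from 4.43 ± 0.21 to 7.28 ± 0.24 (log2 signal, SD, n = 3, limma adjusted p 2.76e-06). Slc1a5, a glutamine carrier, rose by 1.27 from 4.68, and Slc38a2, another carrier of small neutral amino acids, by 0.91 from 4.80. Slc3a2, the heavy chain of several carriers, rose by 0.46. The wild-type signals of Slc7a3, Slc1a5 and Slc38a2 lie below the array medians, which start at 5.479. How far they stood above background is unknown. Slc43a1, which lets branched-chain amino acids pass, fell by 0.52 (adjusted p 0.0397), a call lost without any 1 wild-type array, Dgcr8 knockout replicate 2 or Dicer knockout replicates 1 or 2 (adjusted p 0.0606 to 0.139). Slc7a11, the cystine carrier, and Slc7a5, the leucine carrier, were not called (0.05 and -0.18). Of 12 tRNA synthetases only Gars, which charges glycine tRNA, was called higher than in wild-type, by 0.35 (adjusted p 0.00848), or 8.33% against 4.87% of all genes. The median change of the 12 was 0.06. Against Dgcr8 knockout eggs 2 of the 12 were called higher, or 16.7% against 5.48% of all genes. These were Gars (0.30, limma adjusted p 0.0149) and Mars1 (0.52, adjusted p 0.0374). The Mars1 call was lost in 7 of 18 other settings, and against wild-type Mars1 did not pass (0.48, adjusted p 0.0602).

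Upstream, 12 of 13 listed genes for eIF2, its exchange factor and its regulators were tested. Eif2s1, which encodes a subunit of eIF2, had no probe set naming it alone. Of the 12, 1 was called lower, or 8.33% against 6.47% of all genes, and none higher. That gene was Gcn1, the ribosome-bound partner that activates Gcn2, at 8.60 ± 0.06 in wild-type, 8.72 ± 0.07 in Dgcr8 knockout and 8.32 ± 0.03 (log2 signal, SD, n = 3) in Dicer knockout eggs. Its change of -0.28 against wild-type had a limma adjusted p of 0.036 and was lost in 9 of 18 other settings, among them without any 1 wild-type or Dicer knockout array or Dgcr8 knockout replicate 1 (adjusted p 0.0567 to 0.136), whereas the -0.41 against Dgcr8 knockout eggs (adjusted p 0.00521) was kept in all 18. Impact, an inhibitor of Gcn2, had a change of -0.82 ± 0.26 (SE) that did not pass (adjusted p 0.0727). Against Dgcr8 knockout eggs 2 of the 12 were called lower, or 16.7% against 7.92% of all genes. The second was Eif2ak2, another eIF2 kinase, at -0.53 (limma adjusted p 0.0439), lost in 11 of 17 other settings. Its signals are low, with means of 4.72 in Dgcr8 knockout and 4.19 in Dicer knockout eggs.

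**Figure D4:**
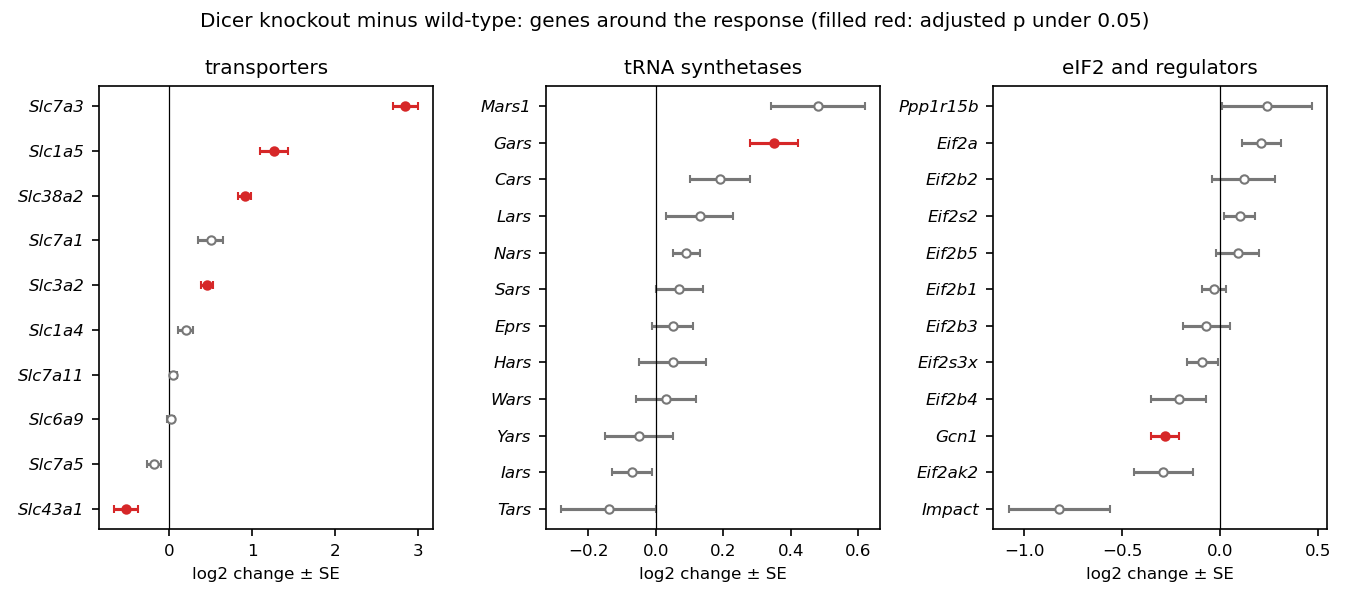
Log2 change in Dicer knockout against wild-type, with its SE, for the 10 transporters, 12 tRNA synthetases and 12 genes of eIF2 and its regulators; filled red points have a limma adjusted p under 0.05, and each panel has its own axis. Slc7a3 (2.85) and Slc1a5 (1.27) stand at the top of the transporters, and Gcn1 (-0.28) is the one called gene of the last group.

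The other branches of the unfolded protein response, which share Perk's trigger but not Atf4, are given by their counts. Of 20 genes, 6 were called lower in Dicer knockout than in wild-type eggs and 1 higher; over all genes, too, more were called lower (6.47%) than higher (4.87%). The chaperone genes Pdia4 (-0.42), Hyou1 (-0.34) and Hsp90b1 (-0.31) were among those lower, and Dnajb9, a co-chaperone, was higher by 0.74 (adjusted p 0.027); Hspa5, the main chaperone BiP, was not called (-0.06). Calls in this list ranged from 2 to 8 over 18 other settings, and the Dnajb9 call was lost in 6 of them, among them without any 1 Dicer knockout array or wild-type replicates 2 or 3 (adjusted p 0.0527 to 0.0877). Hyou1 lost its call in 5 settings and Hsp90b1 in 6, in both without wild-type replicates 2 or 3, for Hyou1 also without Dicer knockout replicate 3 and for Hsp90b1 without wild-type replicate 1. Of 10 mitochondrial protease and chaperone genes 1 was higher, Hspe1 (0.44), and 1 lower, Afg3l2 (-0.28), and both calls were lost when 1 of several arrays was left out (wild-type replicates 1 or 3 or Dicer knockout replicate 2 for both, Dicer knockout replicate 1 or Dgcr8 knockout replicate 2 for Hspe1, and wild-type replicate 2 or Dicer knockout replicate 3 for Afg3l2). Of 15 p53 targets, a list included because p53 also induces Sesn2, 11 were tested. Cdkn1a and Bax had no probe set naming them alone, and Fas and Eda2r did not pass the filter on low signal. Among the 11, none was higher and 2 were lower, Btg2 (-0.70) and Trp53inp1 (-0.45). Without wild-type replicate 3 or Dicer knockout replicate 1 neither was called. Btg2 was also lost without wild-type replicates 1 or 2 or Dicer knockout replicate 2. Whether p53 had a part in the Sesn2 change was not tested. Of 20 neighbouring enzymes of amino acid and one-carbon metabolism, among them Shmt1, Cbs, Gldc and Mthfd1, none was higher and 1 was lower, Got1 (-0.55, adjusted p 0.0482, lost in 12 of 18 other settings, among them without any 1 wild-type array, Dgcr8 knockout replicates 2 or 3, or Dicer knockout replicates 2 or 3).

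**Figure D5:**
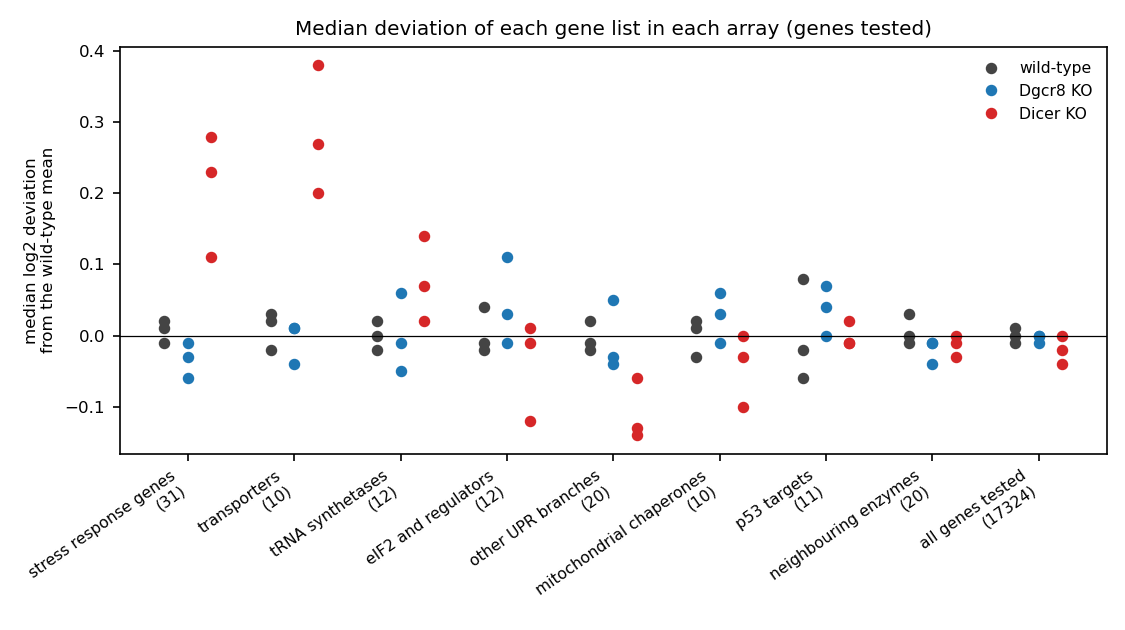
Median deviation of each gene list from the wild-type mean (log2) in each of the 9 arrays, with the number of genes tested in brackets; points are arrays, coloured by genotype. The stress response genes lie between 0.11 and 0.28 in the 3 Dicer knockout arrays and the transporters between 0.20 and 0.38, while all genes tested lie between -0.04 and 0.01 in all 9.

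Among the Dicer knockout arrays, the median deviation of the 31 genes from the wild-type mean was 0.28 in replicate 1, 0.11 in replicate 2 and 0.23 in replicate 3; wild-type and Dgcr8 knockout arrays spanned -0.06 to 0.02. With 1 array left out in turn, the number called in Dicer knockout against wild-type ranged from 6, without wild-type replicate 2, to 12, without Dicer knockout replicate 2. Asns, Fgf21, Shmt2, Cth, Vldlr and Sesn2 were called in every one of 18 other settings.

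The targeted genes were lower where the labels place the deletions. Dgcr8 fell by 3.24 in Dgcr8 knockout eggs and Dicer1 fell by 0.95 in Dicer knockout eggs (log2; limma adjusted p 1.06e-05 and 1.01e-05), and the sources used here do not say whether these probes lie inside the deleted parts. Of 14 oocyte genes, 1 was called higher and 1 lower in Dicer knockout against wild-type eggs, where 4.87% and 6.47% of all genes were. These were Zp2 (0.40, lost without wild-type replicate 3 or Dicer knockout replicates 1 or 2) and Kit (-0.36). Of markers of other cells, Gata4 (0.59) was called of 16 for cumulus and granulosa, Cd68 (0.96) of 7 for immune and blood cells, and Myh11 (-0.46) of 7 for oviduct; the Gata4 and Cd68 calls were lost without wild-type replicate 3. The summed linear signal of the cumulus markers was 1560 to 1660 in wild-type and 1450 to 1680 in Dicer knockout arrays, that of the oviduct markers 1160 to 1220 and 886 to 1000, and that of the immune markers 197 to 245 and 262 to 381. The immune sum was higher and the oviduct sum lower in every Dicer knockout array than in wild-type. Each sum weighs its brightest probe most, and the median log2 change was 0.04 for the immune and -0.03 for the oviduct markers. Myh11 fell from a mean of 9.75 to 9.30 and Cd68 rose from 6.44 to 7.40, while Lyz2 was scattered in Dicer knockout (SD 1.35). The 2 brightest cumulus markers moved in opposite directions. Nr5a2 went from 9.80 to 9.39 (limma adjusted p 0.0671) and Gata4 from 8.03 to 8.62, so the cumulus sum can hide such shifts. The part of these markers in the changes above was not tested. The values carry no detection call by which a marker could be said to be absent.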

How the data were processed

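The authors' deposited values are log2 signals, 1 per probe set and array, made with GCRMA per the submitters' processing notes, which name no settings. Genes were named through the platform annotation (21789 of 35557 probe sets name 1 gene), and where a gene had several, the 1 with the highest average signal was used. Genes with a log2 signal of at least 4 in at least 3 arrays were tested by moderated linear models (limma 3.58.1 under R 4.3.3, eBayes with a mean-variance trend and robust prior, statmod 1.5.0). Tests were two-sided, with all 9 arrays in 1 fit, no covariates, and p-values Benjamini-Hochberg adjusted over 17324 genes. On simulated data the fit recovered 55.2%, 89.6% and 100% of genes changed by 0.5, 1 and 2 (log2) in Dicer knockout against wild-type. Only 67, 67 and 66 genes of 17324 were so changed, with independent normal noise. In the real comparison 11.3% of genes were called, so these rates do not measure its power. Precision is limited by the number of arrays, with a median 95% half-width of 0.23 (log2). All 31 measured genes are named, by role; of each neighbouring list, up to 4 called genes by size of change are named, and the few others named were chosen after their values were seen. Genes and lists were chosen with earlier results of these data known. Same-numbered arrays did not deviate together (r from -0.235 to 0.112), and differently numbered ones gave r from -0.164 to 0.255. Deviations from means of 3 arrays limit these r values, so a weak pairing could be missed. The numbers were not used as pairs in the main fit.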

Additional observations from a re-analysis of the deposited data

How the results depend on the processing

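No call changed direction under the alternatives. For Dicer knockout against wild-type, 9 other settings of the filter, scaling, probe set, eBayes, arrays in the fit, array weights and replicate block gave 8 to 11 called genes of the response, and leaving out 1 array gave 6 to 12; requiring a 2-fold change gave 3. For Dicer against Dgcr8 knockout these were 7 to 11, 7 to 10 and 4. For Dgcr8 knockout against wild-type, where 0.0231% of all genes were called in the main fit, the count was 0 throughout. With the replicate block, which takes same-numbered arrays as a set, 9, 0 and 10 genes were called. Asns, Fgf21, Shmt2, Cth, Vldlr and Sesn2 kept their calls against wild-type in all 18 settings; Atf4 lost its call in 2, Cebpg in 4 and Aldh18a1 in 12, and Mthfd2, Chac1 and Ddit3 gained one in 6, 4 and 1. With signals of at least 6 required, 23 of the 31 genes remained to be tested. The cause was not tested. The values give no detection call, so how far a low signal stood above background is unknown.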
